A study of Mus musculus with 6 samples.

Results

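The genes described here are 46 genes of mitosis and the kinetochore, chosen by symbol: the cyclins and kinases that start mitosis, the proteins that join chromosomes to the spindle, the motors that move them, and the machinery that splits the cell. Of the 46, 45 were measured among 18193 genes in all; Ccnb1 was not analysed here. Expression was set side by side in bone marrow plasma cells (B220- CD138+, 3 arrays) and in spleen B cells (B220+ CD23+, 3 arrays), all from mice of strain C57BL/6. Mice giving plasma cells had been boosted with the protein antigen KLH 7 days earlier, and the cells were enriched on magnetic beads through CD138 and then sorted, whereas the B cells were called naïve and no treatment was given for them. Total RNA of both came from the same kit and was amplified and biotin-labelled in the same way, but 50000 to 70000 plasma cells and 2000000 to 3000000 B cells went into the arrays. Cell type therefore goes with organ, boost, enrichment and cell number, and these cannot be told apart. The labels do not say whether the arrays of a group came from separate mice, so the p-values measure the spread between these arrays. That spread may be technical, but in B cells it also holds a difference in sex-linked RNA between array 1 and arrays 2 and 3, given below.

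Mitotic genes are switched on late in the cell cycle. Cdk1 with its cyclins starts mitosis, condensin compacts the chromosomes, the kinetochore binds them to spindle microtubules, and the spindle assembly checkpoint holds back the anaphase-promoting complex until all are attached. Long-lived plasma cells and naïve follicular B cells are both regarded as resting cells, while plasmablasts, the precursors of plasma cells, divide. Many mitotic promoters carry a CCAAT box, bound by NF-Y, and a cell cycle genes homology region, TTTGAA in its common form, bound by the MuvB complex.

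Plasma cells had more RNA of most of these genes. Of the 45 measured, 33 (73.3%) were called higher in plasma cells and 1, Ndc80, was called lower, at a limma adjusted p under 0.05; over all genes 17.6% were called higher and 12.3% lower. Calls of at least 2-fold numbered 30 higher and 1 lower, with 10.9% and 6.78% of all genes. The median log2 fold change of the members was 1.84, with a range of -1.03 to 3.52, while the median over all genes was -0.06. All 3 plasma cell arrays lay above all 3 B cell arrays for 38 members (25.4% of all genes did so), and below them for 3, namely Cenpa, Ndc80 and Smc4 (22.4% of all genes). The groups overlapped for Cdc25c, Kif2c, Ect2 and Ncapd2. In RNA from bulk samples, a larger share of cells in mitosis and more RNA per cell cannot be told apart.

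**Figure D1:**
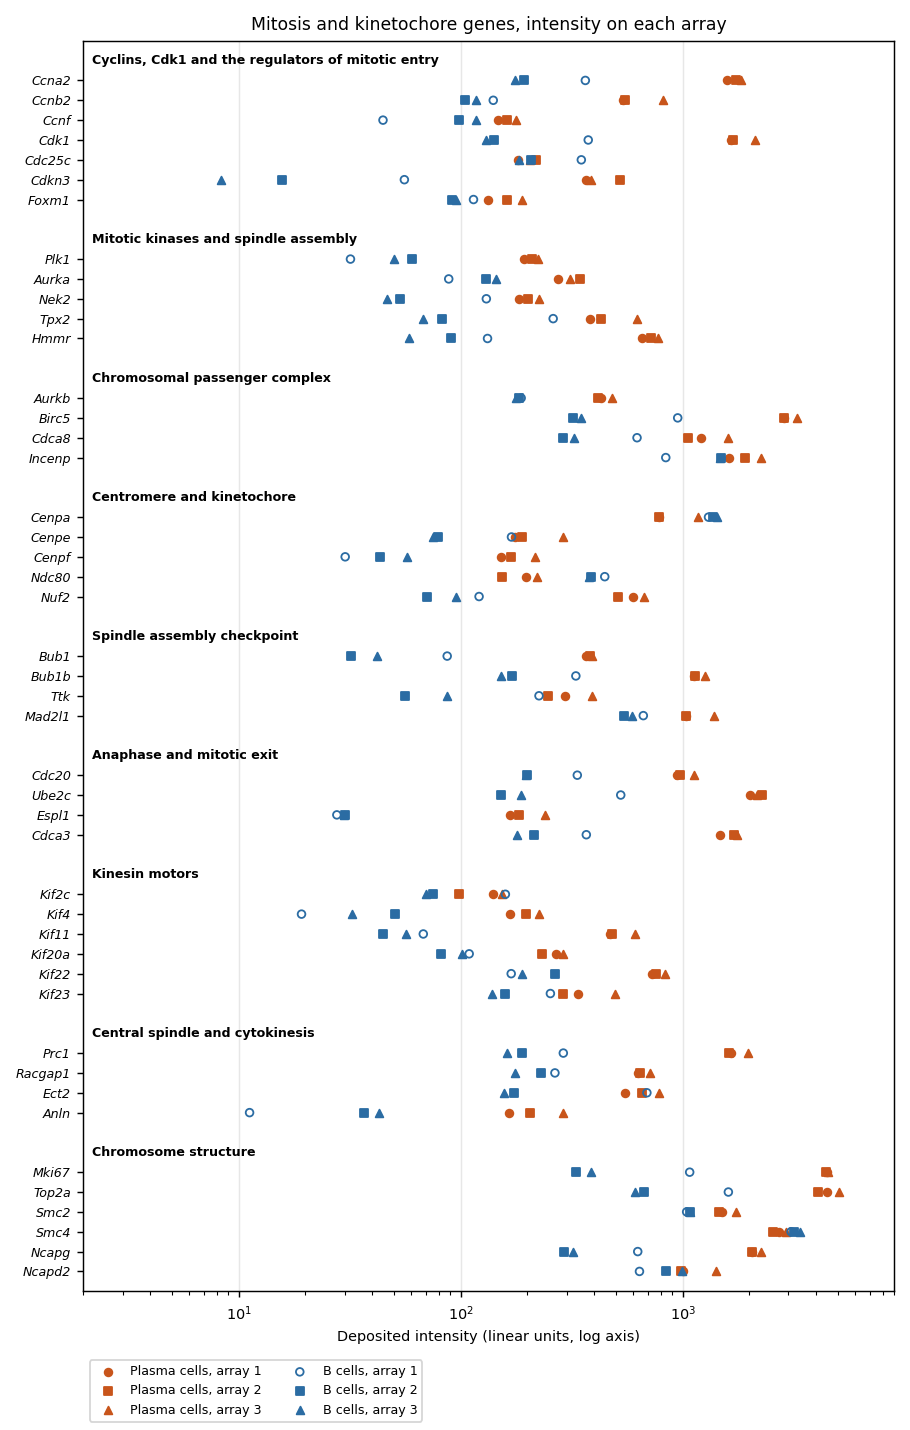
Deposited intensity of each of the 45 measured genes on a log axis, with 1 point per array, grouped by role; plasma cell arrays are orange and B cell arrays blue, with B cell array 1 as open circles. For 38 genes all plasma cell points lie to the right of all B cell points, and for Cenpa, Ndc80 and Smc4 they lie to the left.

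The promoters of 8 members are shown because their genes cover the steps from mitotic entry to cytokinesis and include Cenpa, which did not rise. They were chosen after the values were seen. Each window runs from 120 bases before to 30 after the RefSeq transcript start (assembly GRCm38.p6), 5′ to 3′ on the strand of the gene, with TTTGAA and CCAAT in capitals wherever they occur on either strand (TTCAAA and ATTGG are their reverse complements). The windows are Cdk1 at chr10:69352883-69353032 (minus strand), Ccnb2 at chr9:70421525-70421674 (minus), Cdc20 at chr4:118437314-118437463 (minus), Ube2c at chr2:164769809-164769958 (plus), Espl1 at chr15:102296173-102296322 (plus), Kif11 at chr19:37376262-37376411 (plus), Prc1 at chr7:80294331-80294480 (plus) and Cenpa at chr5:30666766-30666915 (plus).
Cdk1: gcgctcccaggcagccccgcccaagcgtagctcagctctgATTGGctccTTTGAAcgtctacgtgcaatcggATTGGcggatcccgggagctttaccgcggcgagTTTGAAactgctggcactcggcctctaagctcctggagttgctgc
Ccnb2: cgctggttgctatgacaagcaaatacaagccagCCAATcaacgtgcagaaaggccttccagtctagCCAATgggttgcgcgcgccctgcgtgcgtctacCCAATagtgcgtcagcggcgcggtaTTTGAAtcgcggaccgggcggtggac
Cdc20: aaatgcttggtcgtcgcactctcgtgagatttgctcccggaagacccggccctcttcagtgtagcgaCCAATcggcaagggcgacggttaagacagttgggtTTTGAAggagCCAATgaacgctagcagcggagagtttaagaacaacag
Ube2c: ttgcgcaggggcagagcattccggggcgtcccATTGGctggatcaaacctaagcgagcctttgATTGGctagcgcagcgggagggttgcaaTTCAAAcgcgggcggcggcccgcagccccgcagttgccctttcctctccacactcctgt
Espl1: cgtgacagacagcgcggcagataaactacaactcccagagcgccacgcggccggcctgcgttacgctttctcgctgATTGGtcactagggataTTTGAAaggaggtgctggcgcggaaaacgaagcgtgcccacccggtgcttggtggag
Kif11: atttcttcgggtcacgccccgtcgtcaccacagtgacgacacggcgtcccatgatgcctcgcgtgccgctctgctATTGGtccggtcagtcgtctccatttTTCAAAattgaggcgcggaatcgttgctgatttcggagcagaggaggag
Prc1: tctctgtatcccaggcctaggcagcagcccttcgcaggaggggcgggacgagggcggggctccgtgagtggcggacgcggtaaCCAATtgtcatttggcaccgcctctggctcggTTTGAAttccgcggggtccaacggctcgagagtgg
Cenpa: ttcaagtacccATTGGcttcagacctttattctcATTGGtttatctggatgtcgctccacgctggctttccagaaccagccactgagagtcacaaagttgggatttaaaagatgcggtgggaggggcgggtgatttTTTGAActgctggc

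Promoters were found in the RefSeq table for 38 of the 46 listed genes. Within 250 bases before and 50 after the start, on either strand, TTTGAA occurred in 31 of the 38 (81.6%), against 20.2% of 27025 genes with a promoter. CCAAT occurred in 32 (84.2%), against 41.1%, and both words in 28 (73.7%), against 8.97%. These shares describe letters in a window and not bound sites. Members called higher held both words in 22 of 28 cases (78.6%), and those not called or called lower in 6 of 9 (66.7%). The promoter of Ndc80, the member that fell, held TTTGAA, 30 bases after the start, and no CCAAT, while Birc5, Mad2l1 and Nuf2, called higher, held neither. Among other mitosis genes both words occurred in 22 of 91 (24.2%), and among DNA replication genes in 5 of 36 (13.9%).

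The arrays were checked first. All 8 plasma cell markers measured were higher in plasma cells and all 6 B cell markers were lower. The 3 plasma cell arrays correlated at 0.985 to 0.989 over all genes and B cell arrays 2 and 3 at 0.992, but B cell array 1 reached only 0.933 and 0.926 with them. Its median intensity was 130, against 86.67 to 95.07 on the other 5 arrays. It also differed by sex-linked RNA: Xist, transcribed from the inactive X, had 8702, 8070 and 8244 in plasma cells, against 8408, 30.8 and 18.1 in B cells, and Y-linked Kdm5d had 8.8, 7.9 and 3.0 in plasma cells, against 3.6, 1507 and 1576 in B cells. The labels give no sex. Over the 6 arrays sex-linked RNA thus goes in part with cell type. Without B cell array 1, all plasma cell arrays have Xist and all remaining B cell arrays have Kdm5d. In that comparison sex-linked RNA and cell type cannot be told apart. Results that rest on B cell array 1 are given with and without it.

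Of the 7 measured regulators of mitotic entry, 5 were called higher, 2 were not called, and the median log2 fold change was 2.23. Values in brackets are log2 fold changes, plasma cells minus B cells, with their standard errors. Cdk1, the kinase that drives entry, had intensities of 1648, 1684 and 2111 in plasma cells, against 376, 142 and 130 in B cells (3.13 ± 0.40, limma adjusted p = 0.00229). Ccna2, the cyclin of S phase and early mitosis, had 1582, 1735 and 1834 in plasma cells, against 365, 194 and 176 in B cells (2.80 ± 0.28, adjusted p = 0.000909). Both genes were separated by a wide gap, with B cell array 1 the nearest to plasma cells. Ccnb2, a B-type cyclin, had 537, 552 and 813 in plasma cells, against 140, 104 and 117 in B cells (2.23 ± 0.21, adjusted p = 0.000695). Cdkn3, a phosphatase that acts on cyclin-dependent kinases, had 366, 525 and 386 in plasma cells, against 55.8, 15.6 and 8.3 in B cells (3.52 ± 0.42, adjusted p = 0.00176). Its B cell signal exceeded background on 1 of 3 arrays, so its fold change depends on the constant added before the logarithm. Foxm1, the transcription factor of late cell cycle genes, had 133, 162 and 189 in plasma cells, against 114, 91.7 and 95.4 in B cells (0.60 ± 0.17, adjusted p = 0.0414). Its call was lost under 7 of 16 alternative settings, among them leaving out plasma cell array 2 or 3 or B cell array 2 or 3. These values come from a probe set of the kind that can cross-hybridise. With such probe sets left out, another was used for Foxm1, with 120, 136 and 142 in plasma cells, against 21.2, 61.5 and 53.6 in B cells, and its log2 fold change was 1.34 (adjusted p = 0.0183). Ccnf, an F-box cyclin, had 148, 162 and 177 in plasma cells, against 44.7, 98.2 and 117 in B cells (0.87 ± 0.31, adjusted p = 0.085). Cdc25c, a phosphatase that activates Cdk1, had 181, 219 and 205 in plasma cells, against 350, 207 and 183 in B cells (-0.22 ± 0.25, adjusted p = 0.554). The groups overlapped, and without B cell array 1 the log2 fold change of Cdc25c was 0.04.

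All 5 mitotic kinases and spindle assembly factors were called higher, with a median log2 fold change of 1.85. Hmmr, a spindle-associated hyaluronan receptor, had 656, 723 and 774 in plasma cells, against 132, 90.7 and 58.3 in B cells (2.79 ± 0.26, adjusted p = 0.00074). Plk1, the Polo-like kinase of centrosome maturation and mitotic exit, had 193, 209 and 224 in plasma cells, against 31.9, 60.3 and 49.9 in B cells (1.85 ± 0.20, adjusted p = 0.00119). Aurka, the centrosomal Aurora kinase, had 274, 344 and 310 in plasma cells, against 88.4, 130 and 144 in B cells (1.27 ± 0.20, adjusted p = 0.00523). For all 5 genes of this list all plasma cell arrays lay above all B cell arrays, as they did for 25.4% of all genes. Tpx2, which activates Aurka on the spindle, had 382, 429 and 623 in plasma cells, against 261, 82.7 and 67.9 in B cells (1.87 ± 0.48, adjusted p = 0.0325). Nek2, a kinase that separates centrosomes, had 184, 201 and 226 in plasma cells, against 131, 53.1 and 46.4 in B cells (1.35 ± 0.34, adjusted p = 0.03). With these probe sets both genes were high on B cell array 1, and their calls were lost under 6 of 16 alternative settings, among them leaving out any 1 array other than B cell array 1. Another for Tpx2 had 469, 478 and 467 in plasma cells, against 63.8, 65 and 40.5 in B cells (2.77 ± 0.18, adjusted p = 0.000172 over all probe sets). Another for Nek2 had 152, 188 and 208 in plasma cells, against 24.9, 38.3 and 33.8 in B cells (2.04 ± 0.18, adjusted p = 0.000526 over all probe sets).

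The chromosomal passenger complex places Aurora B at the centromere and then at the central spindle. Of its 4 members 3 were called higher, with a median log2 fold change of 1.44 over the 4. Birc5 (survivin), which docks the complex on chromatin, had 2878, 2863 and 3272 in plasma cells, against 951, 322 and 347 in B cells (2.62 ± 0.42, adjusted p = 0.0054). Aurkb, its kinase, had 428, 417 and 481 in plasma cells, against 187, 184 and 177 in B cells (1.20 ± 0.12, adjusted p = 0.000836). Aurkb was steady within each group, but its probe sets were all of the kind that can cross-hybridise. Cdca8 (borealin) had 1215, 1057 and 1594 in plasma cells, against 623, 288 and 323 in B cells (1.67 ± 0.33, adjusted p = 0.0116). Incenp, the scaffold, was high in both, with 1625, 1910 and 2267 in plasma cells, against 840, 1494 and 1475 in B cells (0.64 ± 0.27, adjusted p = 0.138). With probe sets that can cross-hybridise left out, Incenp was called higher (0.86, adjusted p = 0.0245).

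Centromere and kinetochore genes moved in both directions. Of the 5, 2 were called higher, 1 lower and 2 were not called. Nuf2 and Ndc80 (Hec1) pair in the complex that grips microtubules, and they differed in opposite directions. Nuf2 had 597, 510 and 671 in plasma cells, against 121, 70.6 and 94.9 in B cells (2.46 ± 0.21, adjusted p = 0.000508). Ndc80 had 197, 154 and 222 in plasma cells, against 446, 387 and 380 in B cells (-1.03 ± 0.17, adjusted p = 0.00577). Neither gene overlapped between groups (25.4% of all genes lay wholly above and 22.4% wholly below in plasma cells), and Ndc80 was read by only 1 probe set. Cenpa, the histone H3 variant that marks centromeres, had 782, 787 and 1172 in plasma cells, against 1309, 1371 and 1424 in B cells (-0.60 ± 0.19, adjusted p = 0.0623). It did not pass the threshold, but was called lower under 6 of 16 alternative settings, among them leaving out plasma cell array 3. Cenpf, a kinetochore and nuclear matrix protein, had 152, 168 and 216 in plasma cells, against 30.2, 43.4 and 57.4 in B cells (1.72 ± 0.22, adjusted p = 0.00234). Cenpe, a kinetochore motor, had 176, 189 and 290 in plasma cells, against 170, 79.5 and 75.3 in B cells (0.97 ± 0.34, adjusted p = 0.0824). A dimmer Cenpe probe set was called higher, with 144, 131 and 167 in plasma cells, against 32.2, 51.1 and 46.3 in B cells (1.47 ± 0.18, adjusted p = 0.00178 over all probe sets).

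The spindle assembly checkpoint had 3 of 4 genes called higher, with a median log2 fold change of 1.92. Bub1, a checkpoint kinase of the kinetochore, had 366, 384 and 389 in plasma cells, against 87, 32 and 41.8 in B cells (2.59 ± 0.29, adjusted p = 0.00142). Bub1b (BubR1) had 1126, 1135 and 1260 in plasma cells, against 330, 171 and 152 in B cells (2.42 ± 0.29, adjusted p = 0.00178). Mad2l1, the checkpoint protein that binds Cdc20, had 1037, 1039 and 1387 in plasma cells, against 665, 543 and 591 in B cells (0.92 ± 0.17, adjusted p = 0.00926). The groups did not overlap for any of the 3, and all plasma cell arrays lay above all B cell arrays for 25.4% of all genes. With the mean of all its probe sets Bub1 was not called (0.934, adjusted p = 0.175). Ttk (Mps1), the upstream kinase, had 294, 248 and 392 in plasma cells, against 226, 55.9 and 86.4 in B cells (1.41 ± 0.46, adjusted p = 0.0691), and B cell array 1 lay just under the lowest plasma cell array. Without B cell array 1 Ttk was called higher.

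All 4 genes of anaphase and mitotic exit were called higher, with a median log2 fold change of 2.45. Ube2c, the ubiquitin-conjugating enzyme of the anaphase-promoting complex, had 2015, 2285 and 2171 in plasma cells, against 526, 152 and 186 in B cells (3.04 ± 0.45, adjusted p = 0.00386). Cdc20, the activator of that complex, had 947, 978 and 1120 in plasma cells, against 336, 198 and 196 in B cells (2.03 ± 0.23, adjusted p = 0.00147). Espl1 (separase), the protease that cuts cohesin, had 167, 183 and 240 in plasma cells, against 27.7, 30.1 and 29.8 in B cells (2.22 ± 0.16, adjusted p = 0.000282). Espl1 was close to background on the B cell arrays, which lay within a narrow range. Cdca3, which helps degrade the Cdk1 inhibitor Wee1, had 1473, 1702 and 1757 in plasma cells, against 368, 214 and 180 in B cells (2.68 ± 0.27, adjusted p = 0.00093).

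Kinesin motors had 4 of 6 genes called higher, with a median log2 fold change of 1.57. Kif11 (Eg5), which pushes spindle poles apart, had 470, 479 and 611 in plasma cells, against 67.9, 44.9 and 56.5 in B cells (2.89 ± 0.18, adjusted p = 0.000173). Kif22, a chromosome-arm motor, had 727, 762 and 832 in plasma cells, against 169, 265 and 188 in B cells (1.84 ± 0.19, adjusted p = 0.000979). Kif20a, a motor of the central spindle, had 270, 232 and 288 in plasma cells, against 109, 81.8 and 102 in B cells (1.30 ± 0.15, adjusted p = 0.00174). In all 3 the groups lay well apart. Kif4, a chromokinesin encoded on the X chromosome, had 166, 197 and 226 in plasma cells, against 19.2, 50.6 and 32.4 in B cells (2.12 ± 0.26, adjusted p = 0.00194). Its value on B cell array 1, the B cell array with Xist, was the lowest. That value lay below the background of 40.57 on the array, so its rank cannot be read. Kif23, the centralspindlin motor, had 339, 289 and 495 in plasma cells, against 254, 159 and 138 in B cells (0.97 ± 0.29, adjusted p = 0.0507), and was called higher under 8 of 16 alternative settings, among them leaving out B cell array 1. Kif2c, a microtubule depolymerase, had 139, 98.6 and 154 in plasma cells, against 159, 75.1 and 70 in B cells (0.38 ± 0.32, adjusted p = 0.428).

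Genes of the central spindle and cytokinesis had 3 of 4 members called higher, with a median log2 fold change of 1.95. Prc1, which bundles midzone microtubules, had 1658, 1618 and 1967 in plasma cells, against 290, 189 and 162 in B cells (2.98 ± 0.23, adjusted p = 0.000362). Anln (anillin), a scaffold of the contractile ring, had 165, 205 and 288 in plasma cells, against 11.2, 36.7 and 42.9 in B cells (2.39 ± 0.35, adjusted p = 0.00401). Racgap1, the partner of Kif23 in centralspindlin, had 628, 644 and 716 in plasma cells, against 266, 230 and 176 in B cells (1.52 ± 0.18, adjusted p = 0.00159). These 3 genes had all plasma cell arrays above all B cell arrays, as 25.4% of all genes did. Ect2, the exchange factor that activates RhoA at the furrow, had 548, 654 and 783 in plasma cells, against 690, 174 and 156 in B cells (1.24 ± 0.56, adjusted p = 0.159). B cell array 1 lay inside the plasma cell range, and without it Ect2 was called higher, with a log2 fold change of 1.89.

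Of the 6 genes of chromosome structure, 4 were called higher, with a median log2 fold change of 1.45. Mki67 (Ki-67), the proliferation marker that coats mitotic chromosomes, had 4454, 4442 and 4508 in plasma cells, against 1076, 332 and 385 in B cells (3.07 ± 0.44, adjusted p = 0.00348). Top2a, the topoisomerase that untangles sister chromatids, had 4474, 4085 and 5073 in plasma cells, against 1608, 667 and 609 in B cells (2.36 ± 0.38, adjusted p = 0.00574). Both were above background on every B cell array, as were 39 of the 45 members. With the mean of all 3 of its probe sets Top2a was not called (0.325, adjusted p = 0.619). The condensin subunits differed among themselves. Ncapg had 2048, 2049 and 2247 in plasma cells, against 628, 291 and 322 in B cells (2.39 ± 0.30, adjusted p = 0.00203). Smc2, an ATPase subunit, had 1497, 1460 and 1742 in plasma cells, against 1043, 1079 and 1084 in B cells (0.54 ± 0.12, adjusted p = 0.0211), a call that was lost under 8 of 16 alternative settings, among them leaving out any 1 array other than B cell array 1. Its partner Smc4 had 2721, 2550 and 2930 in plasma cells, against 3081, 3180 and 3365 in B cells (-0.23 ± 0.12, adjusted p = 0.205). Ncapd2 had 1003, 987 and 1414 in plasma cells, against 639, 846 and 999 in B cells (0.45 ± 0.23, adjusted p = 0.202).

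**Figure D2:**
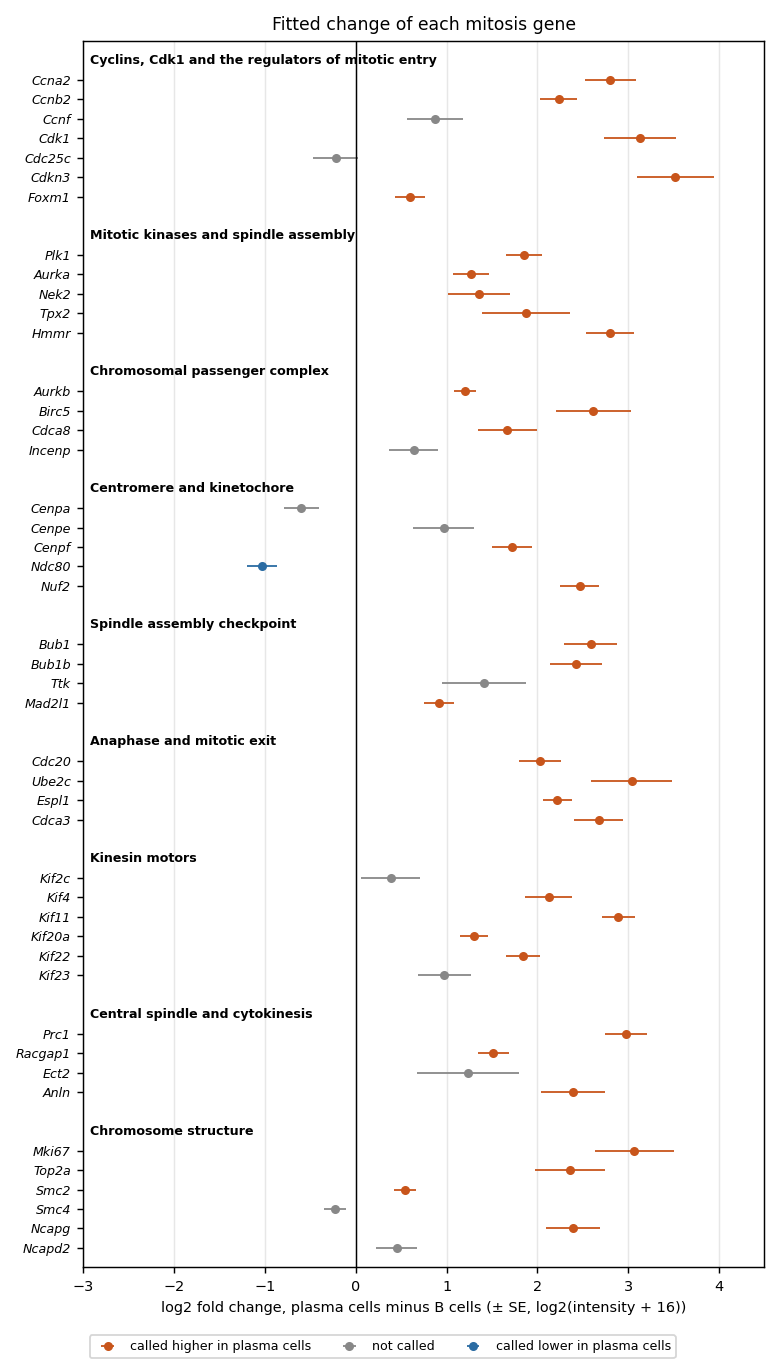
Fitted log2 fold change of each measured gene, plasma cells minus B cells, with its SE, grouped by role. Values run from -1.03 for Ndc80 to 3.52 for Cdkn3, and 4 of the 45 are below 0.

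B cell array 1 was the highest of the 3 B cell arrays for 32 of the 45 members (71.1%), against 43.6% of all genes. It exceeded the mean of the other B cell arrays at least 2-fold for 10 members (22.2%), against 14.9% of all genes, and lay at least 2-fold below for 2 (Ccnf and Anln), against 4.5%. The members' median log2 intensity was 9.14, 9.15 and 9.51 on the plasma cell arrays, against 8.11, 7.45 and 7.39 on the B cell arrays. The median difference of plasma cells was 1.55 from B cell array 1 and 1.89 from arrays 2 and 3. All 3 plasma cell arrays lay above B cell array 1 for 39 of 45 members. Without B cell array 1, 39 members were called higher and 1 lower, with 22.7% of all genes called higher and 21.1% lower. With array weights, which gave this array the least weight, 39 members were called higher and 3 lower (Cenpa, Ndc80 and Smc4), with 26.6% and 25.6% of all genes. The same array was high in markers of other cells. T and NK cell markers (9 measured) summed to 5749, 6174 and 5815 on the plasma cell arrays, mostly Cd28, which plasma cells also express, against 4908, 218 and 267 on the B cell arrays. On B cell array 1 the brightest of them was Cd3e, with 225, 175 and 502 in plasma cells, against 1966, 27.2 and 36.5 in B cells. Granulocyte markers (11 measured) summed to 8738, 20233 and 15001 in plasma cells, against 13144, 3061 and 2068 in B cells, and S100a9 was the brightest. Erythroid markers (9 measured) summed to 2682, 2276 and 4682 in plasma cells, against 5279, 3776 and 4065 in B cells. Most of each sum was Tfrc, which was not high on B cell array 1 (3538, 3582 and 3807 in B cells). Slc4a1, chosen after its values were seen, was high there, with 277, 327 and 143 in plasma cells, against 1158, 18.4 and 37.3 in B cells. Of 6 germinal centre markers 5 were higher on B cell array 1 than on both other B cell arrays, against 43.6% of all genes. Their median log2 difference from arrays 2 and 3 was 0.82, against -0.01 over all genes. The part of these cells in the mitotic values was not tested.

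**Figure D3:**
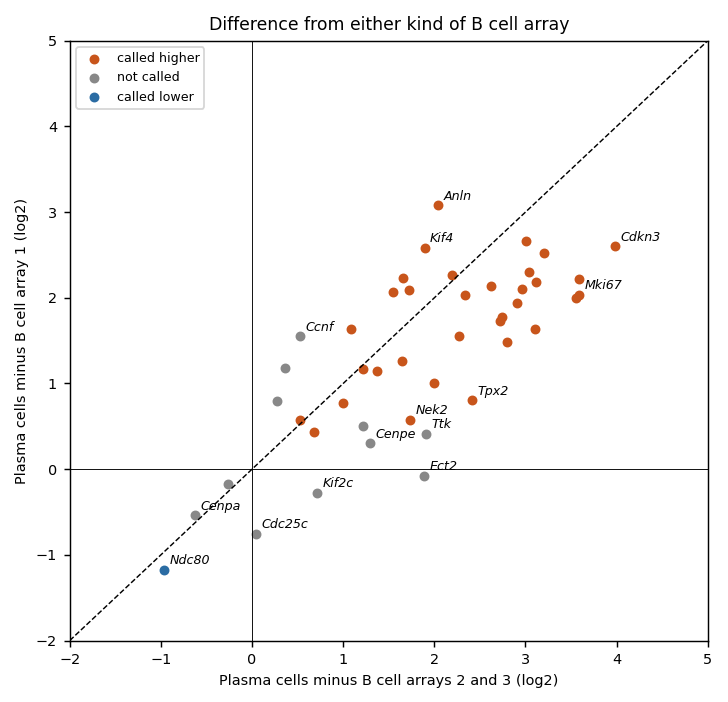
Each point is 1 measured gene, with the log2 difference of plasma cells from B cell arrays 2 and 3 on the horizontal axis and from B cell array 1 on the vertical axis. The median is 1.89 on the horizontal and 1.55 on the vertical axis, and 6 genes lie below 0 against array 1.

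Plasma cell array 3 was the highest plasma cell array for 41 of the 45 members (91.1%), against 39.7% of all genes. It was also the highest for 70 of 108 other mitosis genes and 36 of 43 DNA replication genes. Its median ratio to the mean of arrays 1 and 2 was 1.19 over the members, with a range of 0.87 to 1.59, and 1.01 over all genes. Most markers of dividing B cell precursors of the bone marrow were higher in plasma cells. Of 8 pro-B and pre-B cell markers 6 were called higher, with 17.6% of all genes. The 8 summed to 22020, 19179 and 28254 in plasma cells, against 6379, 5150 and 4688 in B cells. A large part was Cd93, chosen after its values were seen, with 6884, 7077 and 6929 in plasma cells, against 613, 518 and 493 in B cells. The brightest was Igll1, a surrogate light chain, with 8737, 8358 and 8367 in plasma cells, against 4090, 2893 and 2447 in B cells. Cd93 and Igll1 were nearly even over the plasma cell arrays, and both were above background on every B cell array. The sum therefore cannot be read as RNA of precursor cells alone. Dntt (terminal transferase), chosen after its values were seen, had 3547, 412 and 5670 in plasma cells, against 28.7, 24.8 and 12.2 in B cells (5.79 on the log2 scale, adjusted p = 0.00631). The list did not move as a whole between the plasma cell arrays: Dntt was lowest on array 2, while Rag1, a recombinase subunit also chosen after its values were seen, had 815, 1075 and 2250 in plasma cells, against 59, 35.6 and 37 in B cells. Of the 8 markers, 6 were highest on plasma cell array 3, as were most members. Progenitor markers (4 measured, 2 called higher and 1 lower) summed to 2513, 1508 and 2896 in plasma cells, against 519, 244 and 306 in B cells. Kit, the stem cell factor receptor and the brightest, had 1736, 1188 and 1507 in plasma cells, against 61.7, 41.4 and 41.1 in B cells. Of 6 germinal centre markers 3 were called higher and 1 lower, with 17.6% and 12.3% of all genes. Neil1 was the brightest in plasma cells. Monocyte markers (7 measured) summed to 1140, 2114 and 1713 in plasma cells, against 5610, 3479 and 3764 in B cells, and megakaryocyte markers (5 measured) to 317, 242 and 287 in plasma cells, against 202, 187 and 238 in B cells. How far these cells contribute to the mitotic values of the plasma cell arrays was not tested.

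**Figure D4:**
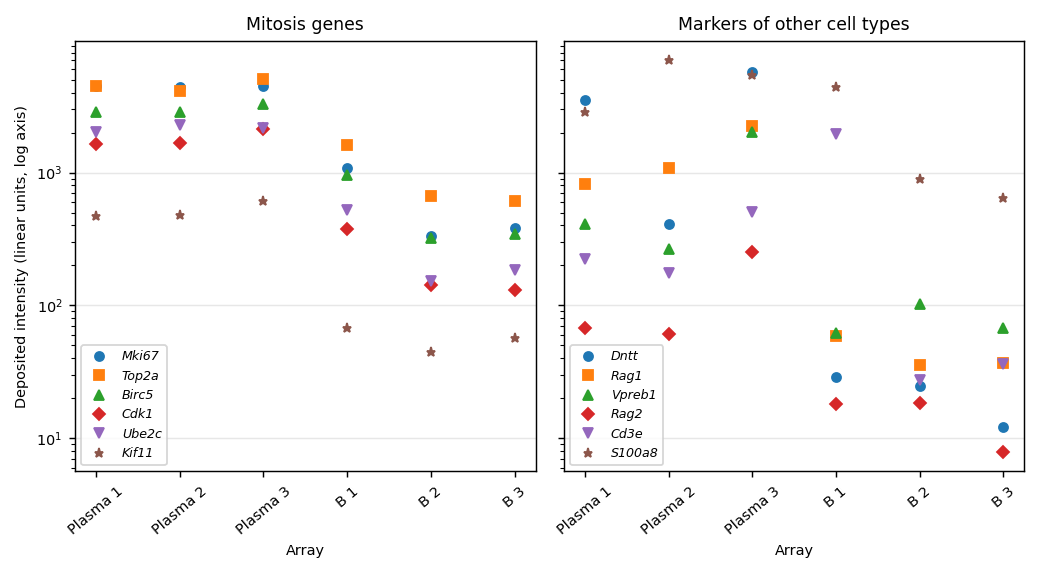
Deposited intensity on each of the 6 arrays, on a log axis, of 6 mitosis genes (left) and of 6 markers of B cell precursors, T cells and granulocytes (right), all picked after their values were seen, with 1 symbol per gene. Over the plasma cell arrays Mki67 runs from 4442 to 4508, Dntt from 412 to 5670 and Rag1 from 815 to 2250, and Dntt and Rag1 are highest on array 3.

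The 45 genes were read by 105 probe sets, of which 64 were called higher, 2 lower and 39 not called, with 16% of all probe sets called higher and 12.9% lower. Of the 60 not used for the gene values, 30 were called higher and 1, a Nek2 probe set above background on 1 array, lower. Probe sets of the same gene often disagreed. The log2 fold changes were 2.59 and -0.72 for Bub1, 2.36, -0.48 and -0.90 for Top2a, and 2.39 and -0.42 for Anln, and the negative ones were not called. For Cdc25c and Kif2c the brightest probe set was not called while a dimmer one was. The dimmer Cdc25c probe set had 267, 237 and 267 in plasma cells, against 42.1, 27.9 and 34.2 in B cells (2.44 ± 0.15, adjusted p = 0.000163), where the brighter was not called. A dimmer Kif2c probe set had 177, 174 and 180 in plasma cells, against 18.6, 25.7 and 27.2 in B cells (2.28 ± 0.14, adjusted p = 0.000145). Both these probe sets are of the kind that can cross-hybridise. So are those used for the members Nek2, Cdca8, Bub1b, Cdc20, Kif22 and Prc1, which stayed called higher with such probe sets left out. For Smc4 all 3 probe sets were slightly lower in plasma cells, with log2 fold changes of -0.21 to -0.24, and none was called. Some dim probe sets were high on B cell array 1 alone: another Kif11 probe set had 167, 165 and 215 in plasma cells, against 521, 89.8 and 82.3 in B cells. Among the 60 other probe sets 14 (23.3%) were at least 2-fold higher on B cell array 1 than on the other B cell arrays, against 12.2% of other probe sets of all genes.

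Of the other genes of mitosis, 108 of a list of 110 were measured. Among them 44 were called higher and 9 lower, with 17.6% and 12.3% of all genes, and their median log2 fold change was 0.34. The highest were Ncapg2, a condensin II subunit (3.96 ± 0.23), Wee1, the kinase that inhibits Cdk1 (2.76 ± 0.37), and Pbk, a mitotic kinase (2.76 ± 0.30). The Pbk probe set is of the kind that can cross-hybridise. The lowest were Cenpt, an inner kinetochore protein (-1.51 ± 0.26), Pkmyt1, another inhibitor of Cdk1 (-1.17 ± 0.24), and Cdc25b, a Cdk1 activator (-1.16 ± 0.18). The difference in shares between this list and the members was not tested.

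Grouping by complex was done after the values were seen, and the genes named from it were chosen in the same way. The counts below stand beside 17.6% of all genes called higher and 12.3% called lower. With so few genes in a complex, they were not tested against these shares. In the Ndc80 complex Spc24, Spc25 and Nuf2 were called higher and Ndc80 lower. Spc24 had 589, 594 and 689 in plasma cells, against 205, 133 and 87.1 in B cells (2.09 ± 0.29, adjusted p = 0.00302). Spc25 had 502, 562 and 596 in plasma cells, against 91.1, 187 and 170 in B cells (1.83 ± 0.27, adjusted p = 0.00369). CENP-A and its loading factors had no higher call: Mis18a, which prepares the centromere for CENP-A, had 976, 858 and 1072 in plasma cells, against 1653, 1847 and 1944 in B cells (-0.90 ± 0.14, adjusted p = 0.00502). The Mis12 complex had 1 lower call in 4, Pmf1 (-0.93 ± 0.11), and none higher. The inner kinetochore network had 6 of 13 called higher and 1 lower, the Ska complex 2 of 3 higher. Condensin had 5 of 8 called higher; Ncapg2 had 4604, 4756 and 4568 in plasma cells, against 409, 239 and 230 in B cells. Cohesin and its regulators had 4 of 10 called lower (Stag2, Pds5a, Pds5b and Nipbl) and 1 higher, Cdca5 (sororin), which protects cohesion (2.59 ± 0.16). Among the genes called lower here, those for Mis18a, Pmf1 and Pds5a came from probe sets of the kind that can cross-hybridise. Of 13 core subunits of the anaphase-promoting complex only Anapc13 was called higher (0.95 ± 0.25, adjusted p = 0.036) and none lower, beside the 2.03 of its activator Cdc20 and the 3.04 of its enzyme Ube2c.

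**Figure D5:**
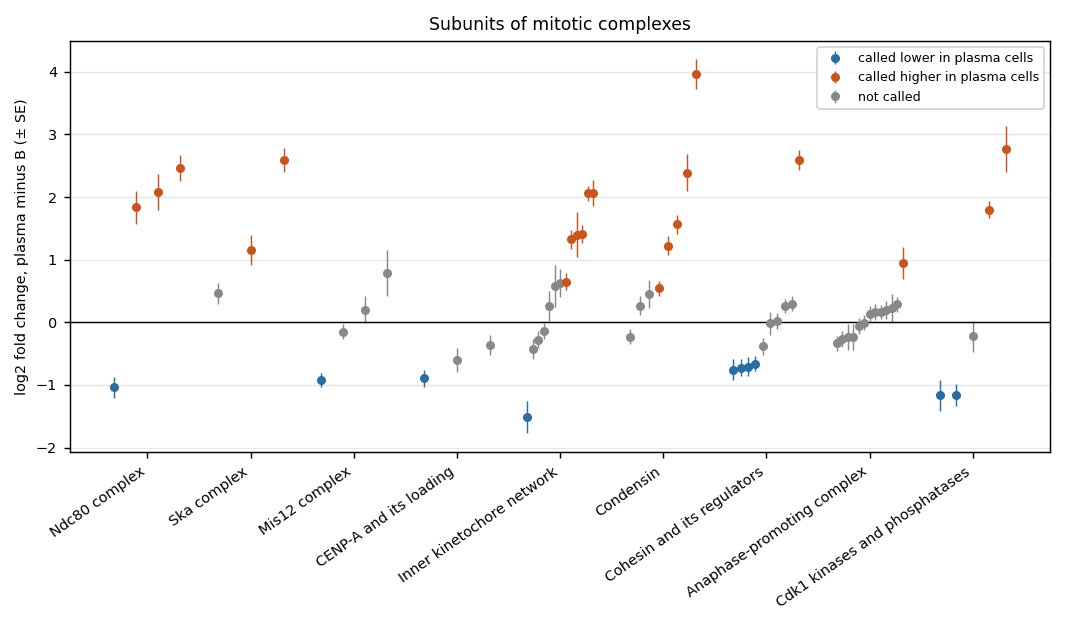
Log2 fold change, plasma cells minus B cells, with its SE, of the subunits of 9 complexes or groups, by call. The Ndc80 complex spans -1.03 to 2.46, and the anaphase-promoting complex -0.34 to 0.95.

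Of 15 genes of MuvB, DREAM, B-Myb and NF-Y, 2 were called higher and 2 lower, with 17.6% and 12.3% of all genes. Their median log2 fold change was -0.25, against -0.06 over all genes. Such counts are near the shares over all genes, and a shift of the list as a whole was not tested. Mybl2 (B-Myb), which joins MuvB in dividing cells, had 93, 81.8 and 141 in plasma cells, against 42.2, 43.8 and 32.2 in B cells (1.11 ± 0.21, adjusted p = 0.0113). Tfdp1, the E2F partner, rose by 0.88 ± 0.19 (adjusted p = 0.0162). E2f5, a repressive E2F, had 192, 231 and 219 in plasma cells, against 550, 743 and 790 in B cells (-1.61 ± 0.18, adjusted p = 0.00127). The E2f5 probe set is of the kind that can cross-hybridise. Rbl2 (p130), the pocket protein of DREAM, had 688, 652 and 621 in plasma cells, against 872, 957 and 899 in B cells (-0.47 ± 0.12, adjusted p = 0.0271).

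DNA replication genes, active in the preceding S phase, had 13 of 43 called higher and 1 lower, with 17.6% and 12.3% of all genes. Their median log2 fold change was 0.28. Cdc6, which loads the replicative helicase, had 303, 304 and 385 in plasma cells, against 33.2, 44.4 and 37.1 in B cells (2.67 ± 0.15, adjusted p = 0.000135). Rrm2, a ribonucleotide reductase subunit, had 6741, 6861 and 7276 in plasma cells, against 2623, 1354 and 1371 in B cells (2.03 ± 0.28, adjusted p = 0.00299). Pold1, a DNA polymerase delta subunit, went the other way, with 823, 802 and 1372 in plasma cells, against 3286, 7103 and 7479 in B cells (-2.51 ± 0.39, adjusted p = 0.00477). The probe sets used for Rrm2 and Pold1 are of the kind that can cross-hybridise.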

How the data were processed

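RNA of 6 Affymetrix arrays, 3 of bone marrow plasma cells and 3 of spleen B cells, was analysed from the deposited value table, whose linear intensity values were kept as the authors gave them (normalization: not given in the sources used here). Gene symbols came from the platform annotation (2016), updated through RefSeq: of 45101 probe sets, 34945 had 1 symbol (34741 matched), 932 several and 9160 none, and 64 were controls. Each gene was read by the probe set of highest mean log2 intensity. Background was the 95th percentile of 27 bacterial controls on each array, 22.99 to 41.79. Values were tested as log2(intensity + 16), plasma cells minus B cells, with lmFit and eBayes of limma 3.58.1 (R 4.3.3) and Benjamini-Hochberg adjustment over 18193 genes, threshold 0.05; ± is the standard error. The constant understates changes of dim genes. Precision is limited by having 3 arrays a group. The test was checked on simulated data. Of 50 genes raised at each size, it called 1 at 1.5-fold, 11 at 2-fold, 29 at 4-fold and 42 at 8-fold. Among 17993 unchanged genes it called 3. A gene that was not called may therefore still have changed. Members and gene lists were chosen with earlier results of these data known. Named were all members, the 3 highest and 3 lowest called other mitosis genes, 2 of each direction for MuvB and replication genes, and the brightest marker; genes outside this rule are marked or belong to the complexes. There were 16 alternatives.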

Additional observations from a re-analysis of the deposited data

How the results depend on the processing

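Over 16 alternative settings the members called higher numbered 29 to 39 and their median log2 fold change 1.219 to 2.029; the direction of the median did not change. The median was 1.415 with a constant of 64 and 1.219 with the mean of all probe sets of a gene. Members called lower numbered 2 with a constant of 64, quantile normalization, a background filter or an intensity trend, and 3 with array weights, which gave 4840 genes higher and 4654 lower in all. Median centring left 1243 genes lower in all and 2 other mitosis genes lower, against 22 with array weights, and moved the median of all genes by more than 0.1, to 0.06 from -0.057. Leaving out 1 array at a time gave 29 to 39 members higher, 1 to 2 lower and a median of 1.674 to 1.894; 2224 to 4121 genes higher and 1347 to 3830 lower in all; and 33 to 53 other mitosis genes higher and 5 to 19 lower. The highest of these counts came without B cell array 1, except that 2 members were lower without plasma cell array 3. Without B cell array 1, the 6 members gaining a call were Ccnf, Cenpe, Ect2, Kif23, Kif2c and Ttk. Cdc25c turned positive with the mean of all probe sets (1.107, adjusted p = 0.00549) and without B cell array 1 (0.042); leaving out each array in turn gave -0.397 to 0.042. Whether the labels' replicate numbers pair the arrays cannot be settled with 3 arrays a group. Same-numbered arrays had deviations correlating at 0.048, 0.005 and 0.046. The first and last were the highest of all pairs, but B cell array 2 correlated better with plasma cell array 3 (0.032) than with its own number. With the replicate block 29 members were higher and 1 lower, among 2457 and 1664 genes in all. Signal near background in B cells limits the fold changes of the 6 members not above it on all their arrays. The cause of these shifts was not tested.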
